A study of Mus musculus with 7 samples.

Results

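The 53 genes described here encode the factors of translation initiation and elongation, with a few enzymes named after them, measured in erythroblasts sorted from the marrow of mice reconstituted with Sod2-/- or Sod2+/+ fetal liver cells. They are the genes of an Affymetrix mouse array whose symbols begin with Eif1 to Eif6 or with Eef, leaving out the kinases of eIF2alpha and the eIF4E-binding proteins. They make up 53 of 18193 genes with a probe set of their own, and 135 of 45037 tested probe sets. A gene with several probe sets is given by the brightest, that is, the one with the highest mean over the 7 arrays. Sod2 encodes the superoxide dismutase of the mitochondrial matrix. Donors were littermates taken at E13.5 to E16.5 from crosses of mice heterozygous for the Sod2tm1Cje allele, and both genotypes of cells were injected into irradiated (1050 rad) C57BL/6 hosts of the Ly5.1 type, 11 to 15 weeks old and kept on chlorinated water. TER-119+ CD71+ marrow cells were sorted, so that a gate on surface antigens and not a genotype marker defined the cells, and host cells that survived irradiation could fall in the gate. Sod2-/- samples carry the replicate numbers 31, 35 and 39 (n = 3) and Sod2+/+ samples the numbers 17, 29, 33 and 37 (n = 4). Values on single arrays are listed in these orders throughout. The labels call them biological replicates without tying each to 1 animal, and p-values here reflect the spread among these arrays alone, which may be technical.

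Initiation begins when eIF2, loaded with GTP and the initiator tRNA, joins the small ribosomal subunit together with eIF1, eIF1A, eIF5 and the large scaffold eIF3. The cap-binding eIF4F complex then brings in the mRNA, eIF2B recharges eIF2 with GTP, and eEF1 and eEF2 drive each round of elongation. Erythroblasts depend on high rates of globin synthesis, and heme controls initiation in these cells through a kinase of eIF2alpha.

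The deposited values are log2 values made by robust multi-array averaging (RMA), and each difference below is Sod2-/- minus Sod2+/+ on that scale. With 7 arrays, their number sets how precise any value can be. Array medians lay between 4.48 and 4.54 in Sod2-/- arrays, against 4.45 to 4.49 in Sod2+/+ arrays. Sod2 itself measured 8.47, 8.09 and 8.61 in Sod2-/- arrays, against 8.32, 8.62, 8.20 and 8.59 in Sod2+/+ arrays on its brightest probe set, so that probe set does not separate the genotypes, and it does not check them, since its probes may lie outside the deleted part. Erythroblast markers were bright: 12 of 15 listed genes were measured, with a median difference of 0.07 and 0 called. Their summed level lay between 15.35 and 15.51 in Sod2-/- arrays, against 15.33 to 15.38 in Sod2+/+ arrays. Tfrc, Alas2 and Slc4a1 exceeded a log2 value of 12 on every array. Genes of other marrow cells were present too, and the neutrophil gene S100a9 also exceeded 12 on every array (12.17 to 13.27). Brightness alone thus does not set the erythroblast genes apart. Of 9 measured B cell genes 6 were lower in Sod2-/- erythroblasts (median -0.78), and their summed level on the log2 scale lay between 8.28 and 8.59 in Sod2-/- arrays, against 9.30 to 9.58 in Sod2+/+ arrays. The 10 neutrophil genes all lay below 0, with a median of -0.73 and 0 called (8 lower at an unadjusted p under 0.05). Their summed level lay between 14.00 and 15.055 in Sod2-/- arrays, against 15.063 to 15.38 in Sod2+/+ arrays, without overlap. The 8 macrophage genes had a median of 0.13 with 0 called and a summed level between 8.34 and 10.10 in Sod2-/- arrays, against 8.73 to 8.99 in Sod2+/+ arrays, with C1qb at 8.09 in Sod2-/- replicate 39 and between 4.44 and 4.64 on the other arrays. The 5 measured T cell genes had a median of 0.09, 0 called and a summed level between 7.80 and 7.88 in Sod2-/- arrays, against 7.68 to 7.82 in Sod2+/+ arrays. The 6 megakaryocyte genes had a median of 0.02, 0 called and a summed level between 8.25 and 8.40 in Sod2-/- arrays, against 8.36 to 8.63 in Sod2+/+ arrays. The 3-prime minus 5-prime difference of the Gapdh control probe sets, a measure of RNA integrity, lay between 1.10 and 1.21 in Sod2-/- arrays, against 1.24 to 1.45 in Sod2+/+ arrays, and that of Actb between 0.69 and 0.78 in Sod2-/- arrays, against 0.67 to 0.87 in Sod2+/+ arrays. The part of these cells and of RNA integrity in the results below was not tested, and in bulk RNA fewer cells of a type and less RNA per cell cannot be told apart.

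Messages of 12 initiation factors fell in Sod2-/- erythroblasts, 6 of them for subunits of eIF3. By limma at an adjusted p under 0.05, 12 of 53 factors fell and 0 rose, where 4.47% of all genes fell and 0.412% rose. At an unadjusted p under 0.05, 30 were lower and 2 higher. The median difference was -0.32 over the factors and 0.02 over all genes, and 44 of the factors lay below 0. All 12 calls fell among the 41 initiation factors (median -0.35). Of 12 genes of the elongation machinery 0 passed (median -0.12, 3 lower and 0 higher at an unadjusted p under 0.05). These elongation genes include 4 methyltransferases, Eef1a2 and Eefsec, all with a mean log2 value under 7. A difference between these sets was not tested. All 3 Sod2-/- arrays lay below all 4 Sod2+/+ arrays for 28 factors (14.8% of all genes) and above them for 1 factor (7.19% of all genes).

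Bright genes as a whole were lower in Sod2-/- arrays, and most factors are bright. Of 3296 genes with a mean log2 value of at least 7, 12.8% fell and 1.33% rose, with a median of -0.26. Of the 36 factors that bright, 11 fell and 0 rose, with a median of -0.42. Among the 17 dimmer factors 1 fell, with a median of -0.08. Quantile normalization of the deposited values moved the median of the bright genes to -0.05 and that of the 53 factors to -0.18. It left 6 factors lower, where 2.78% of all genes were lower: Eif1b, Eif2b3, Eif2b4, Eif3e, Eif3f and Eif3m. Whether the remaining shift of the factors is particular to them was not tested.

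**Figure D1:**
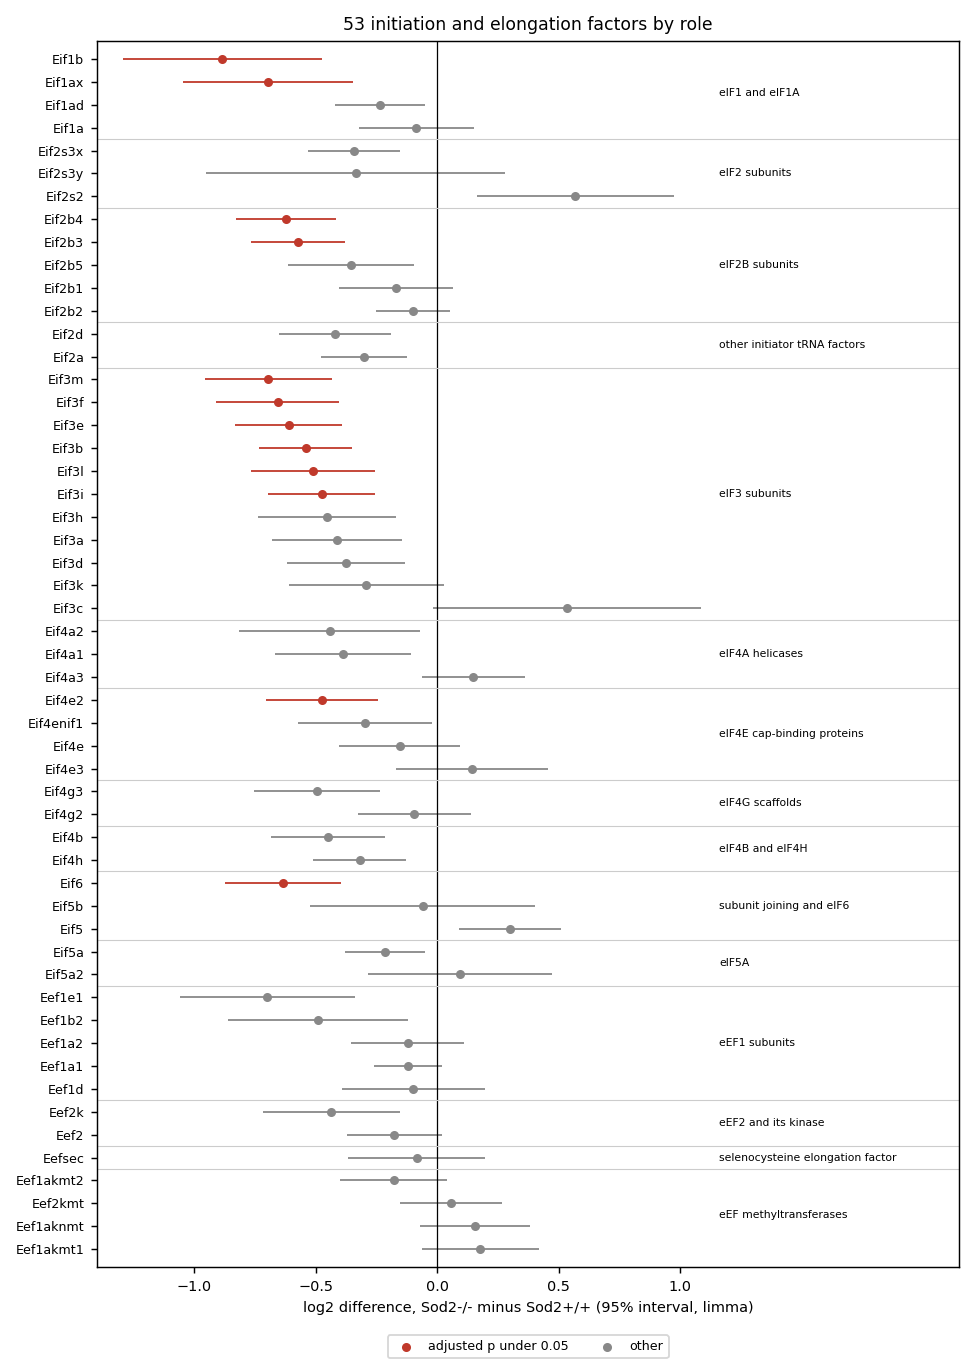
Log2 difference (Sod2-/- minus Sod2+/+) of each of the 53 factors with its 95% interval from limma, grouped by role, red where the adjusted p is under 0.05. The 12 red points all lie left of 0, 6 of them among the eIF3 subunits, and Eif2s2, Eif3c and Eif5 lie to the right.

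Promoters of 5 factors that fell and of Eif5 are shown, to set the letters at their starts beside their values. RefSeq (GRCm38.p6) promoter windows, from 250 bases before to 50 after a start, were matched for 43 of 53 factors and for 8 of the 12 that fell. The 5 printed first belong to factors that fell, 4 of which hold the ETS letters, and the last to Eif5, which had higher values. Capitals mark matches to CACGTG (an E-box), CCGGAAG (a core of ETS factor sites) or AAGATGG (a core of YY1 sites), searched on both strands, and every sequence runs 5′ to 3′ along its gene.
Eif3f promoter, chr7:108934165-108934464, plus strand: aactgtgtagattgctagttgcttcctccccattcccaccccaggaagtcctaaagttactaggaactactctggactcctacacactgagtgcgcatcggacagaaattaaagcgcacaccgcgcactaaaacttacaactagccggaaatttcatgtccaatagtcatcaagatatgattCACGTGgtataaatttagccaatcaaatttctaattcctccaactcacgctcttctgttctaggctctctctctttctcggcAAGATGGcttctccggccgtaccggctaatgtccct
Eif3m promoter, chr2:105016978-105017277, minus strand: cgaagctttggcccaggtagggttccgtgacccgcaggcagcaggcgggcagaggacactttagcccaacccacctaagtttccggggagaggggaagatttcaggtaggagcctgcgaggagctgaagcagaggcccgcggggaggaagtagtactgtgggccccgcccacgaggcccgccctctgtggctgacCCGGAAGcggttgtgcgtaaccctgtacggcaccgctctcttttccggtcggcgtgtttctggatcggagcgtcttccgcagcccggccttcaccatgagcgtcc
Eif3l promoter, chr15:79074973-79075272, plus strand: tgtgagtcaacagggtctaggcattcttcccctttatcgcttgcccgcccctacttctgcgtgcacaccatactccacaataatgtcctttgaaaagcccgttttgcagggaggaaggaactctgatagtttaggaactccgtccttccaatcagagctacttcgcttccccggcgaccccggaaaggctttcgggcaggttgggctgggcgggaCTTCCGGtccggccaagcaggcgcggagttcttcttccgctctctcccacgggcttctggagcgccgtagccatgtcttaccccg
Eif2b4 promoter, chr5:31193090-31193389, minus strand: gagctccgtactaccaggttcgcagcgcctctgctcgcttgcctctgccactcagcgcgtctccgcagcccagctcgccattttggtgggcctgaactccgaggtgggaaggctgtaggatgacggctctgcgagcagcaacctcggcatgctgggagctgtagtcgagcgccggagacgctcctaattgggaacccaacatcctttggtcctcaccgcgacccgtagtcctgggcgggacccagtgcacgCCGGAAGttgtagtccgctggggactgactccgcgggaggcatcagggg
Eif1b promoter, chr9:120492356-120492655, plus strand: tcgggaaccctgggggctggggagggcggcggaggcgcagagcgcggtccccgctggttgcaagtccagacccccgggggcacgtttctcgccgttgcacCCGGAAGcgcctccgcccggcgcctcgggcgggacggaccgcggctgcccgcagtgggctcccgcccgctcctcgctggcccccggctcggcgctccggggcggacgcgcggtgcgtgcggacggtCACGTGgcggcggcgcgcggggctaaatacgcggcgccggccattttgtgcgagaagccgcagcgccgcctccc
Eif5 promoter, chr12:111537851-111538150, plus strand: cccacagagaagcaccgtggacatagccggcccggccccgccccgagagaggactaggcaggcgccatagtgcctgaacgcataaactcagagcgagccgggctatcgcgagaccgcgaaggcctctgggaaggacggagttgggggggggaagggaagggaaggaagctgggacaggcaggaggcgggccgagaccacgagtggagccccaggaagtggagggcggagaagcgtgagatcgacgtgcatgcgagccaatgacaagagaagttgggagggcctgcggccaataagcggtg
Positions count the first base of a match from the annotated start, with no position 0. The E-box of Eif3f lay at -68 and its YY1 letters at 15. Eif1b held an E-box at -24 and ETS letters at -150. The ETS letters lay at -55 in Eif3m, at -35 on the opposite strand in Eif3l and at 2 in Eif2b4. No match was present in the window of Eif5. CACGTG occurred in 12 of the 43 factors (27.9%) and in 8.91% of 17492 protein-coding genes, CCGGAAG in 14 (32.6%) and 12.9%, AAGATGG in 8 (18.6%) and 7.18%, and CGCATGCG, a core of NRF1 sites, in 2 (4.65%) and 2.77%. Of the 8 matched factors that fell, 6 held CCGGAAG, 2 CACGTG, 1 AAGATGG and 0 CGCATGCG. CCGGAAG was also present in factors that did not fall: Eif1ad, Eif2b2, Eif3c, Eif3d, Eif4enif1, Eif5a, Eif5a2 and Eef1b2. Of these, Eif3c and Eif5a2 had differences above 0. The protein-coding genes were not matched to the factors in brightness. These matches describe letters in a window and were not tested as binding sites.

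The eIF3 complex holds the small subunit open for the mRNA and links it to the cap-binding complex. Of its 11 measured subunits 6 fell, 0 rose and 5 did not pass, with a median difference of -0.47 (-0.28 after quantile normalization). Eif3m, a subunit with a PCI domain, had log2 values of 7.51, 7.55 and 7.28 in Sod2-/- arrays, against 7.99, 8.38, 8.00 and 8.20 in Sod2+/+ arrays. Every Sod2-/- value lay below every Sod2+/+ value (log2 difference -0.69, standard error 0.12, limma adjusted p = 0.025). Eif3f, a subunit with an MPN domain, measured 9.88, 9.67 and 9.95 in Sod2-/- arrays, against 10.59, 10.69, 10.34 and 10.35 in Sod2+/+ arrays. The genotypes again did not overlap, by 1.58-fold (log2 difference -0.66, standard error 0.11, limma adjusted p = 0.0259). Eif3e, the product of a mouse mammary tumor virus integration locus, measured 9.14, 9.04 and 9.28 in Sod2-/- arrays, against 9.74, 9.94, 9.60 and 9.79 in Sod2+/+ arrays. It was lower by 1.53-fold without overlap (log2 difference -0.61, standard error 0.10, limma adjusted p = 0.0229), and a pair of dimmer Eif3e probe sets also fell, at differences of -0.61 and -0.98 (adjusted p = 0.0462 and 0.0419). Eif3b, a core scaffold subunit, measured 7.80, 7.85 and 8.07 in Sod2-/- arrays, against 8.51, 8.50, 8.41 and 8.38 in Sod2+/+ arrays. Its Sod2+/+ arrays were tightly grouped and all above the Sod2-/- arrays (log2 difference -0.54, standard error 0.08, limma adjusted p = 0.0221). Eif3l, a peripheral subunit, measured 8.61, 8.32 and 8.59 in Sod2-/- arrays, against 9.04, 9.24, 8.87 and 8.91 in Sod2+/+ arrays. No array of Sod2-/- reached the lowest Sod2+/+ array (log2 difference -0.51, standard error 0.11, limma adjusted p = 0.0471). Eif3i, a subunit with a beta-propeller fold, measured 10.05, 10.07 and 10.22 in Sod2-/- arrays, against 10.61, 10.79, 10.42 and 10.52 in Sod2+/+ arrays. The gap between genotypes was narrower than in Eif3m but without overlap (log2 difference -0.47, standard error 0.10, limma adjusted p = 0.0402), and a dimmer probe set of Eif3i fell by 0.80 (adjusted p = 0.0364).

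The other eIF3 subunits did not pass. Eif3h had a difference of -0.45 (adjusted p = 0.0867), Eif3a, the largest scaffold subunit, of -0.41 (adjusted p = 0.0944) and Eif3d, which in human cells can itself bind a cap, of -0.37 (adjusted p = 0.0956). In all 3 genes every Sod2-/- array lay below every Sod2+/+ array. Eif3k had a difference of -0.29 (adjusted p = 0.299), its arrays overlapped, and Sod2+/+ replicate 17 stood far above the other Sod2+/+ arrays. Eif3c, the subunit that contacts eIF1 and eIF5, differed in sign from the other 10. Its log2 values were 9.80, 9.61 and 9.65 in Sod2-/- arrays, against 9.91, 8.99, 8.73 and 8.98 in Sod2+/+ arrays. Sod2+/+ replicate 17 stood above all Sod2-/- arrays, and the other 3 Sod2+/+ arrays stood below them (log2 difference 0.53, standard error 0.24, limma adjusted p = 0.27). Without Sod2+/+ replicate 17 the difference of Eif3c was 0.79 with a limma adjusted p of 0.0227. This omission is singled out here because of the same values, so its adjusted p cannot decide whether Eif3c rose. Of the alternative settings described below, no other called Eif3c higher. All 4 probe sets of Eif3c had differences above 0, from 0.48 to 0.55, and none passed with all 7 arrays.

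**Figure D2:**
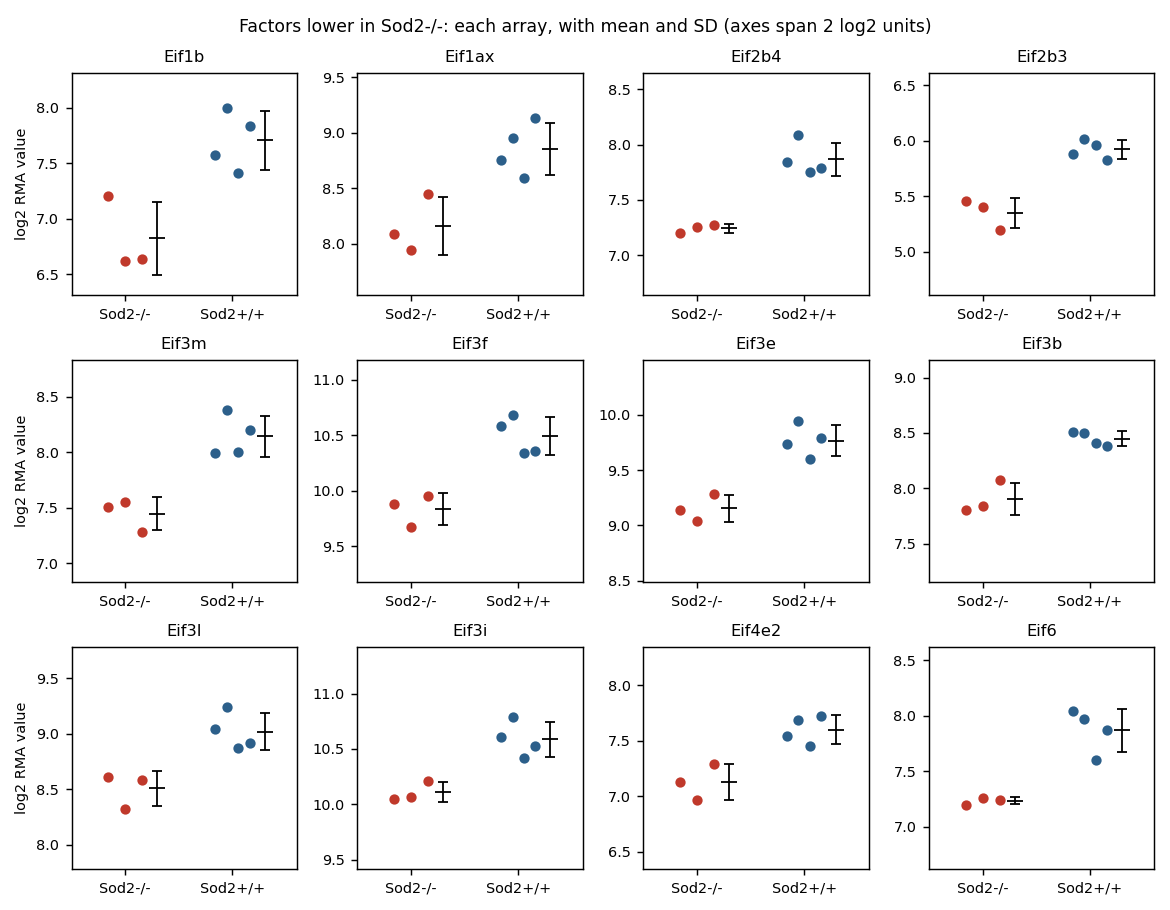
Log2 RMA values of the 12 factors that fell, 1 point an array, Sod2-/- (red, n = 3) left and Sod2+/+ (blue, n = 4) right, with the mean and SD of each group beside its points. In every panel the Sod2-/- points lie below the Sod2+/+ points; the panels have axes of equal span and different origins.

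Factors that guide start codon selection included 2 that fell. Eif1b, a paralogue of eIF1, which keeps the scanning complex from settling on a wrong codon, measured 7.20, 6.62 and 6.64 in Sod2-/- arrays, against 7.57, 8.00, 7.41 and 7.83 in Sod2+/+ arrays. It had the largest difference of the 53 factors, 1.85-fold lower, with Sod2-/- replicate 31 nearest to the Sod2+/+ arrays (log2 difference -0.88, standard error 0.18, limma adjusted p = 0.0393). Eif1ax, the X-linked eIF1A gene, measured 8.09, 7.94 and 8.45 in Sod2-/- arrays, against 8.76, 8.95, 8.59 and 9.13 in Sod2+/+ arrays. The genotypes did not overlap (log2 difference -0.70, standard error 0.15, limma adjusted p = 0.0479). Its paralogue Eif1a was dim and gave a difference of -0.08 (adjusted p = 0.714), and Eif1ad, named for an eIF1A domain, gave -0.24 (adjusted p = 0.155). Thus 2 of the 4 genes fell and the other 2 did not pass. Eif1 itself was not among the 53 factors.

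The measured subunits of eIF2 did not pass, and their signs differed. The alpha subunit, encoded by Eif2s1, was not among the 53 factors. Eif2s2, the beta subunit, measured 10.78, 10.67 and 10.84 in Sod2-/- arrays, against 10.72, 10.00, 9.88 and 10.17 in Sod2+/+ arrays. Sod2+/+ replicate 17 again lay among the Sod2-/- arrays, while the other 3 Sod2+/+ arrays were lower (log2 difference 0.57, standard error 0.18, limma adjusted p = 0.122). Without that array Eif2s2 had a difference of 0.74 with a limma adjusted p of 0.0246. That omission too is singled out because of the same values, and its adjusted p cannot decide whether Eif2s2 rose. No other alternative setting called Eif2s2 higher. Of the 6 probe sets of Eif2s2, 5 had differences above 0. The gamma subunit is encoded by Eif2s3x on the X chromosome and Eif2s3y on the Y chromosome. Eif2s3x had a difference of -0.34 (adjusted p = 0.0645) without overlap, on a probe set of a design that can cross-hybridize, and Eif2s3y had -0.34 (adjusted p = 0.554). Eif2s3y lay between 5.34 and 6.00 in Sod2-/- arrays, against 5.32 to 6.56 in Sod2+/+ arrays.

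Of the 5 subunits of eIF2B, the exchange factor that recharges eIF2 and that phosphorylated eIF2alpha inhibits, 2 fell, 0 rose and 3 did not pass (median -0.35). Eif2b4, the delta subunit, measured 7.20, 7.26 and 7.27 in Sod2-/- arrays, against 7.84, 8.09, 7.75 and 7.79 in Sod2+/+ arrays. The Sod2-/- arrays were tightly grouped and below every Sod2+/+ array (log2 difference -0.62, standard error 0.09, limma adjusted p = 0.0187). Eif2b3, the gamma subunit and the only dim factor that fell, measured 5.45, 5.40 and 5.20 in Sod2-/- arrays, against 5.89, 6.02, 5.97 and 5.82 in Sod2+/+ arrays. It was lower by 1.49-fold without overlap (log2 difference -0.57, standard error 0.09, limma adjusted p = 0.0207). The catalytic subunit Eif2b5 had a difference of -0.35 (adjusted p = 0.129), Eif2b1 of -0.17 (adjusted p = 0.414) and Eif2b2 of -0.10 (adjusted p = 0.463). A dimmer probe set of Eif2b2 fell by 0.48 (adjusted p = 0.0239). Of the other factors that can deliver initiator tRNA, Eif2a had a difference of -0.30 (adjusted p = 0.0741). Eif2d measured 7.01, 6.83 and 7.13 in Sod2-/- arrays, against 7.54, 7.52, 7.32 and 7.27 in Sod2+/+ arrays on its brightest probe set, lower without overlap but past the threshold only on other probe sets (log2 difference -0.42, standard error 0.10, limma adjusted p = 0.063).

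Among the cap-binding proteins and the eIF4E transporter, 1 of 4 genes fell. Eif4e2, a homologue of eIF4E that acts in translational repression and in hypoxia, measured 7.13, 6.97 and 7.29 in Sod2-/- arrays, against 7.54, 7.69, 7.45 and 7.73 in Sod2+/+ arrays. Its genotypes did not overlap (log2 difference -0.47, standard error 0.10, limma adjusted p = 0.0446), and a dimmer probe set fell by 0.89 (adjusted p = 0.0393). Eif4e itself, the cap-binding subunit of eIF4F, had a difference of -0.15 (adjusted p = 0.495), with overlap. Eif4e3 had 0.14 (adjusted p = 0.626) and Eif4enif1, which carries eIF4E into the nucleus, -0.30 (adjusted p = 0.219). Neither of the eIF4A helicases of initiation passed. Eif4a2 measured 7.37, 6.97 and 7.29 in Sod2-/- arrays, against 7.47, 7.71, 7.38 and 8.05 in Sod2+/+ arrays, with every Sod2-/- array below every Sod2+/+ array (log2 difference -0.44, standard error 0.16, limma adjusted p = 0.18), and its paralogue Eif4a1 had a difference of -0.39 (adjusted p = 0.125), also without overlap. Eif4a3, a core protein of the exon junction complex, had 0.15 (adjusted p = 0.429).

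The measured scaffolds and helicase cofactors of cap-dependent initiation did not pass on their brightest probe sets. The scaffold gene Eif4g1 was not among the 53 factors. Eif4g3, a scaffold of eIF4F, measured 6.13, 5.90 and 6.14 in Sod2-/- arrays, against 6.37, 6.52, 6.50 and 6.81 in Sod2+/+ arrays, without overlap (log2 difference -0.49, standard error 0.11, limma adjusted p = 0.0551). Eif4g2, a scaffold that lacks the eIF4E site, had a difference of -0.09 (adjusted p = 0.681). Eif4b, which stimulates the helicase, measured 8.67, 8.25 and 8.62 in Sod2-/- arrays, against 9.01, 8.98, 8.95 and 8.92 in Sod2+/+ arrays. The Sod2+/+ arrays were tightly grouped above the Sod2-/- arrays (log2 difference -0.45, standard error 0.10, limma adjusted p = 0.0533), and a dimmer Eif4b probe set fell by 0.53 (adjusted p = 0.0361). Eif4h, a related cofactor, had -0.32 (adjusted p = 0.0792).

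Late initiation held a factor that fell and another with higher values in Sod2-/- erythroblasts. Eif6, which keeps the large ribosomal subunit from joining too early and takes part in its assembly, measured 7.20, 7.26 and 7.25 in Sod2-/- arrays, against 8.04, 7.97, 7.60 and 7.87 in Sod2+/+ arrays. It was lower by 1.55-fold without overlap (log2 difference -0.63, standard error 0.11, limma adjusted p = 0.025). Eif5b, the GTPase of subunit joining, had a difference of -0.06 (adjusted p = 0.913). Eif5, which triggers GTP hydrolysis by eIF2, measured 11.05, 11.42 and 11.24 in Sod2-/- arrays, against 10.98, 10.99, 10.86 and 10.93 in Sod2+/+ arrays on its brightest probe set. It was the only factor with all Sod2-/- arrays above all Sod2+/+ arrays (log2 difference 0.30, standard error 0.09, limma adjusted p = 0.117). A dimmer Eif5 probe set measured 9.57, 9.98 and 9.80 in Sod2-/- arrays, against 8.88, 9.09, 8.87 and 9.13 in Sod2+/+ arrays. There Eif5 rose 1.73-fold (log2 difference 0.79, standard error 0.11, limma adjusted p = 0.0173), a call that held under 14 of the 20 alternative settings run for it and was lost under 6, among them the omission of Sod2-/- replicate 35 (adjusted p = 0.0589). The other 3 Eif5 probe sets had differences of 0.69, 0.38 and 0.00, and the mean over all 5 had a difference of 0.43 (adjusted p = 0.0295).

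**Figure D3:**
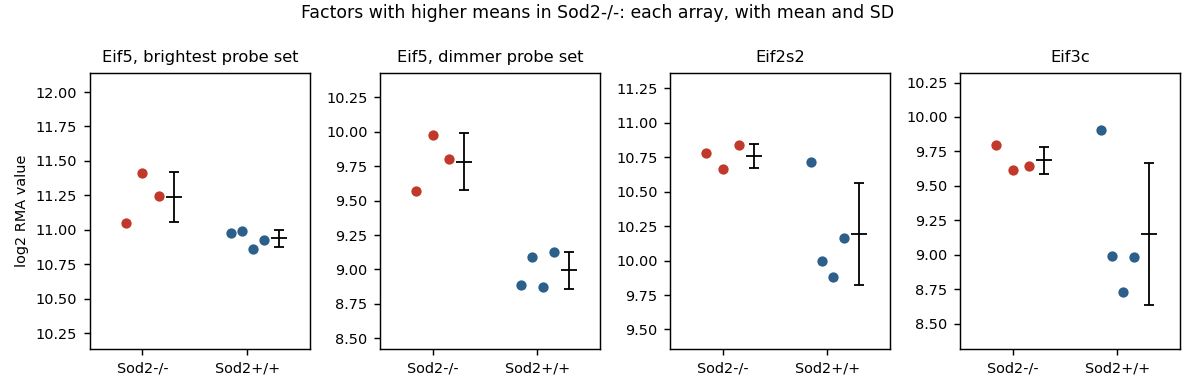
Log2 RMA values on each array for Eif5 (brightest probe set and the dimmer one that rose), Eif2s2 and Eif3c, Sod2-/- (red, n = 3) left and Sod2+/+ (blue, n = 4) right, with mean and SD. Both Eif5 panels separate the genotypes, and in Eif2s2 and Eif3c the single high Sod2+/+ point is replicate 17.

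No elongation gene passed the test, though Eef1e1 and Eef2k passed under some of the alternative settings. Eef1a1, which delivers aminoacyl-tRNA to the ribosome, had log2 values of 12.64 ± 0.05 in Sod2-/- (SD, n = 3) and 12.76 ± 0.03 in Sod2+/+ erythroblasts (SD, n = 4). Its Sod2-/- arrays lay below the Sod2+/+ arrays by a small margin, a difference of -0.12 (adjusted p = 0.333), and its paralogue Eef1a2 had -0.12 (adjusted p = 0.571). The 95% interval of Eef1a1 ran from -0.26 to 0.02. Among the exchange factors of eEF1, Eef1b2 had a difference of -0.49 (adjusted p = 0.139) and Eef1d of -0.10 (adjusted p = 0.737). Eef1e1, a component of the multisynthetase complex that shares the eEF1 name, measured 6.74, 7.07 and 6.74 in Sod2-/- arrays, against 7.49, 7.79, 7.16 and 7.74 in Sod2+/+ arrays. It was lower by 1.62-fold without overlap and just outside the threshold (log2 difference -0.70, standard error 0.16, limma adjusted p = 0.0519). Eef1e1 passed with trend and robust estimation, with bright probe sets alone, with gene means and with Sod2+/+ replicate 33 omitted. Eef2, the translocase, had a difference of -0.18 (adjusted p = 0.304), with a 95% interval from -0.37 to 0.02. Eef2k, the kinase that inhibits eEF2, measured 8.34, 7.85 and 7.86 in Sod2-/- arrays, against 8.52, 8.54, 8.38 and 8.37 in Sod2+/+ arrays. Its Sod2-/- arrays were lower without overlap (log2 difference -0.44, standard error 0.12, limma adjusted p = 0.094), and its other probe sets had differences of -0.53 and -0.37. Eef2k passed with Sod2-/- replicate 31 omitted. Eefsec, which serves selenocysteine, measured 4.92, 4.99 and 4.52 in Sod2-/- arrays, against 4.92, 4.92, 4.72 and 5.01 in Sod2+/+ arrays, with overlap (log2 difference -0.08, standard error 0.12, limma adjusted p = 0.768). Of 4 methyltransferases of the elongation factors the largest difference was in Eef1akmt2, at 4.19, 4.20 and 4.10 in Sod2-/- arrays, against 4.43, 4.51, 4.13 and 4.30 in Sod2+/+ arrays, with overlap (log2 difference -0.18, standard error 0.10, limma adjusted p = 0.357), and the other 3 lay between 0.06 and 0.18. Eif5a, which relieves stalled elongation, measured 11.53, 11.64 and 11.73 in Sod2-/- arrays, against 11.90, 11.82, 11.79 and 11.87 in Sod2+/+ arrays, lower without overlap (log2 difference -0.21, standard error 0.07, limma adjusted p = 0.143), and its paralogue Eif5a2 had 0.09 (adjusted p = 0.816). A difference between the initiation and elongation genes was not tested.

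Known mRNAs with a terminal oligopyrimidine tract, which growth signals control together at the level of translation, include 8 of the 53 factors. Of these 8, 2 fell (Eif3e and Eif3f) and 8 lay below 0, with a median of -0.45. Of the other 45 factors 10 fell, with a median of -0.30, but these include dim factors. The 36 factors with a mean log2 value of at least 7 had a median of -0.42, with 11 lower. A difference between these sets at equal brightness was not tested.

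Probe sets of the same gene often differed. Of 36 factors with several probe sets, 18 had all of them on the same side of 0 and 18 had both signs. Over all 135 probe sets, 19 fell and 2 rose, where 2.83% of all probe sets fell and 0.566% rose. Of 82 dimmer probe sets, 7 fell and 2 rose. Of the 32 dimmer probe sets with a mean of at least 7, 21 lay below 0, and of the 50 under 7, 29 did. Eif2d was the only factor called in both directions. A dimmer Eif2d probe set measured 7.27, 7.39 and 7.23 in Sod2-/- arrays, against 6.94, 6.77, 7.06 and 6.88 in Sod2+/+ arrays and rose (log2 difference 0.38, standard error 0.08, limma adjusted p = 0.0476). Another measured 6.56, 6.20 and 6.44 in Sod2-/- arrays, against 6.95, 7.13, 6.80 and 7.00 in Sod2+/+ arrays and fell (log2 difference -0.57, standard error 0.11, limma adjusted p = 0.0339). Both separated the genotypes without overlap, but the rise passed under 3 and the fall under 9 of 20 alternative settings, and each was lost without Sod2-/- replicate 35 or 39 and without Sod2+/+ replicate 17, 29 or 37, the rise also without Sod2-/- replicate 31. The dimmer calls of Eif2b2, Eif3e, Eif3i, Eif4b and Eif4e2 were likewise lost without Sod2-/- replicate 35, without Sod2+/+ replicate 29 and without Sod2+/+ replicate 37. Which transcripts the Eif2d probe sets read was not tested.

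**Figure D4:**
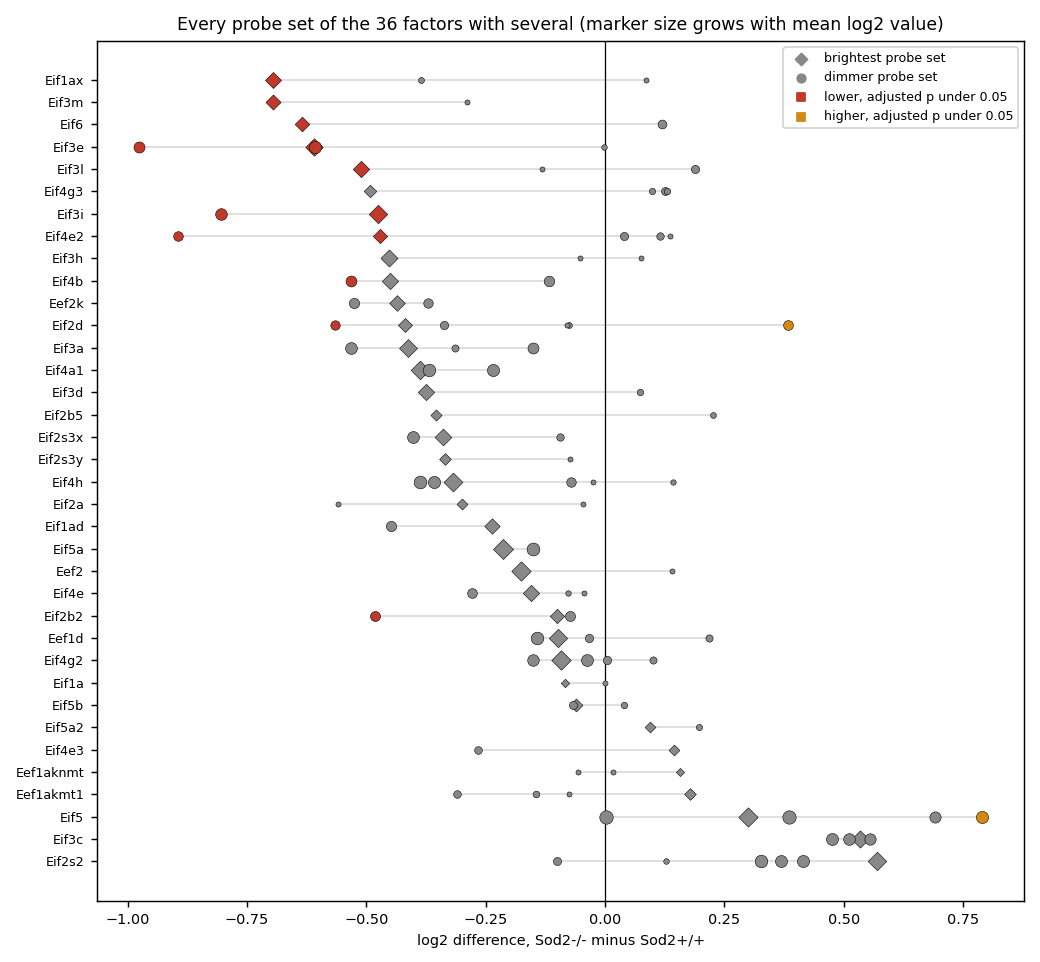
Log2 difference (Sod2-/- minus Sod2+/+) of every probe set of the 36 factors with several, brightest probe set as a diamond and dimmer ones as circles, larger where the mean log2 value is higher, red where it fell and orange where it rose. Eif3c, Eif5 and Eif5a2 have no probe set left of 0, and Eif2d has a red and an orange one.

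The shift was present on each Sod2-/- array. The median deviation of the 53 factors from their Sod2+/+ means was -0.28, -0.36 and -0.25 in Sod2-/- replicates 31, 35 and 39, against 0.00, 0.09, -0.12 and 0.01 in Sod2+/+ replicates 17, 29, 33 and 37. All 3 Sod2-/- arrays lay below all 4 Sod2+/+ arrays. For the 3296 bright genes the same medians were -0.14, -0.34 and -0.24 in Sod2-/- arrays, against -0.04, 0.14, -0.12 and 0.01 in Sod2+/+ arrays. Single arrays decided calls. Of 21 alternative settings, Eif2b4 passed under 14, Eif2b3 under 13, Eif3b, Eif3e and Eif3f under 11 each, Eif3m under 10, Eif1b under 9, Eif6 under 7, Eif3i under 5, Eif1ax and Eif4e2 under 4 each and Eif3l under 2. With Sod2-/- replicate 35 omitted 0 factors passed (0.352% of all genes were then lower, and 25 factors at an unadjusted p under 0.05). Omitting Sod2+/+ replicate 29 left Eif2b4, omitting Sod2+/+ replicate 37 left Eif2b3 and Eif2b4, and omitting Sod2+/+ replicate 17 left these with Eif3b, Eif3e, Eif3m and Eif6. Omitting Sod2-/- replicate 39 kept 6 of the 12 calls, and omitting Sod2-/- replicate 31 kept 7. The median lay between -0.37 and -0.28 over the 7 omissions. Fluidics station 1 handled Sod2-/- replicate 31 and Sod2+/+ replicates 17 and 29, and station 2 the other 4 arrays. The station as a block left 8 calls, and the median was -0.32 within station 1 and -0.27 within station 2, with 0 calls in each by limma (20 and 19 factors lower at an unadjusted p under 0.05). Sod2-/- replicates 31 and 39 came from a chip lot of their own, and Sod2-/- replicate 35 shared the lot of all Sod2+/+ arrays. With the lot as a block, the genotype difference therefore rested on replicate 35 alone, and the median was -0.36. With replicate 35 omitted, lot and genotype cannot be told apart.

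**Figure D5:**
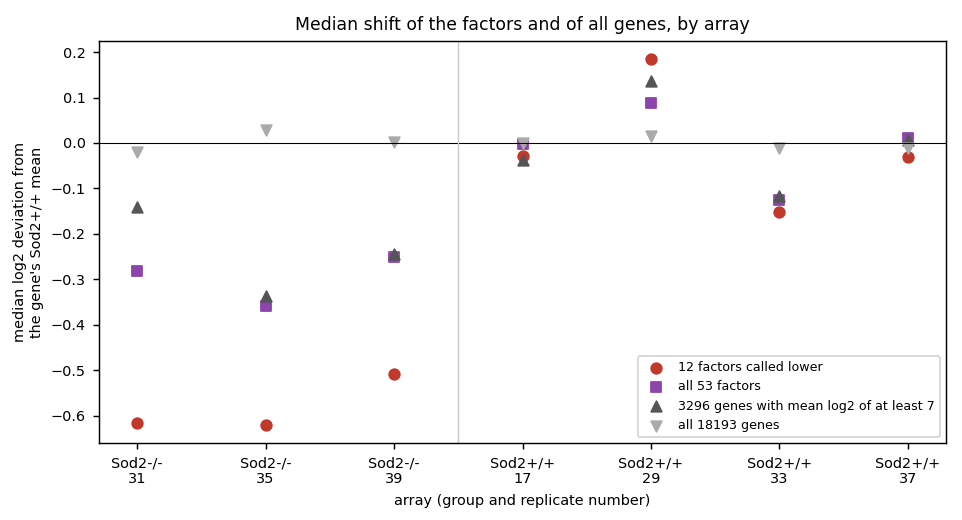
Median log2 deviation from each gene's Sod2+/+ mean on every array, Sod2-/- left and Sod2+/+ right, for the 12 factors called lower (chosen by this difference), all 53 factors, the 3296 bright genes and all 18193 genes. The factors lie between -0.36 and -0.25 on Sod2-/- arrays and between -0.12 and 0.09 on Sod2+/+ arrays.

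Of 46 other measured genes of translation, 2 fell and 0 rose (median -0.08), a share near the 4.47% of all genes that fell. Of 13 termination, recycling and poly(A)-binding factors 1 fell (median -0.06). It is Denr, which acts in reinitiation and the recycling of small subunits, at 5.84, 5.27 and 6.05 in Sod2-/- arrays, against 6.41, 6.54, 6.44 and 6.74 in Sod2+/+ arrays. The genotypes did not overlap (log2 difference -0.81, standard error 0.17, limma adjusted p = 0.0441). Of 16 kinases, modifiers and repressors of the factors 1 fell (median -0.19). It is Ddx3x, an RNA helicase that aids initiation on structured mRNAs, at 9.18, 9.05 and 9.25 in Sod2-/- arrays, against 9.54, 9.73, 9.49 and 9.94 in Sod2+/+ arrays. These did not overlap either (log2 difference -0.52, standard error 0.11, limma adjusted p = 0.0471). Denr passed under 7 and Ddx3x under 3 of 21 alternative settings. The call of Denr ended with the omission of any array but Sod2-/- replicate 39 (adjusted p up to 0.111), and that of Ddx3x with the omission of any but Sod2+/+ replicate 33 (up to 0.159). Of 6 eIF2alpha kinases and eIF4E-binding proteins 0 passed, with a median of 0.01, 3 below 0 and 3 above it. Eif2ak1, the kinase that heme controls, had a difference of 0.21 (adjusted p = 0.256), with every Sod2-/- array above every Sod2+/+ array. Eif4ebp1, which sequesters eIF4E, had a difference of 0.67 (adjusted p = 0.259) with overlap, and Eif2ak3, the kinase of the unfolded protein response, -0.54 (adjusted p = 0.0935). Of 11 mitochondrial translation factors 0 passed (median -0.07), with the largest differences in the elongation factor Gfm1 at -0.58 (adjusted p = 0.0532) and in the release factor Mtrf1l at -0.51 (adjusted p = 0.161).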

How the data were processed

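RNA of 3 Sod2-/- and 4 Sod2+/+ erythroblast samples was hybridized to Affymetrix mouse arrays. The deposited log2 values were made by the authors with robust multi-array averaging, and the submitters' processing notes also name GCOS 1.3.037. Values were used as deposited, with no further normalization or filter, and 64 control probe sets were left out. The study describes a further Sod2-/- array, not used here. Probe sets matched to a single gene in the platform annotation were assigned to it, and 7 probe sets matched to a factor together with other genes were left out. Genotypes were compared with the linear models of limma 3.58.1 (R 4.3.3; lmFit, eBayes, two-sided). P-values were adjusted by Benjamini-Hochberg over 45037 probe sets, and a call is an adjusted p under 0.05. Adjusted p-values come from this fit unless another setting is named. Station and chip lot came from the array settings. Every factor is counted by role, and array values are given for factors past the threshold and for the largest difference of each role. Of each other list the genes past the threshold or otherwise the largest 2 are named, and Eif2ak1 besides, as the kinase that heme controls. Probe sets of Eif5, Eif3c, Eif2s2 and Eif2d, and the promoters, were chosen after their values were seen. The members and lists were chosen with earlier results of these data known. The 21 alternatives comprised the methods' t-test with equal and unequal variances, trend and robust estimation, array weights (statmod 1.5.0), quantile normalization, centring, an offset of 32, bright probe sets alone (mean at or above the median of all probe sets), averaging the probe sets of each gene, station and lot as blocks, each station and the lot of the Sod2+/+ arrays alone, and the omission of each array. Plots used matplotlib 3.10.9 (Python 3.11.15).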

Additional observations from a re-analysis of the deposited data

Results flagged for a closer look

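Among the 4 Sod2+/+ arrays, Eif3k stood out in replicate 17, at a log2 value of 10.15 where the next array measured 9.68. Its gap to that array made up 0.833 of the range of the group, above Dixon's critical value for 4 samples. Of the 53 factors 1 was marked in this way, and chance marks about 1 in 20 groups.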

How the results depend on the processing

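The 12 factors that fell kept their sign under all 21 alternatives. The number of factors called lower, not always among these 12, moved by over 1.5 times under 8 settings that omit no single array. It was 0 by the methods' t-test under either variance assumption (28 and 24 lower at an unadjusted p under 0.05). By that test 0.011% of all genes were lower with equal and 0% with unequal variances. The number was 6 after quantile normalization (2.78% of all genes), 3 with an offset of 32 (0.649%) and 0 within station 2 (0%). With chip lot as a block it was 2, Eif3f and Eif4b (2.54%), of which only Eif3f was among the 12. Within station 1 and within the chip lot of the Sod2+/+ arrays, each with 1 Sod2-/- array, the median was -0.32 and -0.36. The number called lower was 10 with trend and robust estimation (4.47% of all genes), 11 with array weights (3.79%) and 10 after centring (4.35%). It was 16 of 50 with bright probe sets alone (11.1% of the genes tested), 10 with gene means (4.11%) and 8 with station as a block (2.7%). Of the 12, these settings kept 9, 11, 10, 12, 8 and 8, in that order. Gene means also gave 1 factor that rose, Eif5. Omitting 1 array gave between 0 and 12 lower factors and between 0 and 2 higher ones (Eif2s2 and Eif3c, without Sod2+/+ replicate 17). Between 0.352% and 4.09% of all genes were lower under these omissions. The median of the factors was -0.18 after quantile normalization and -0.18 with gene means, and lay between -0.37 and -0.27 otherwise. The cause of these differences was not tested. The within-station and within-lot fits hold fewer arrays, and the lot block leaves Sod2-/- replicate 35 alone to set the genotype difference.

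Of the other translation genes 0 were lower by either form of the t-test, after quantile normalization, with the offset, with station as a block and within either station, 1 with trend and robust estimation, with array weights, with lot as a block and within the lot of the Sod2+/+ arrays, and 5 with bright probe sets alone. Quantile normalization gave 2 higher and station as a block 1, where 1.43% and 0.258% of all genes were higher. The shares of all genes lower under the settings that keep several arrays in each group are given above. Their median was -0.14 with bright probe sets alone, -0.15 with lot as a block and within that lot, -0.13 within station 1 and -0.14 within station 2. Omitting 1 array gave between 0 and 3 lower genes.

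Signs turned for genes that had not passed. After quantile normalization the difference was 0.024 for Eif1ad, 0.13 for Eif2b2, 0.075 for Eif4e, 0.0077 for Eif4g2, 0.11 for Eif5b and 0.029 for Eef1d. Within station 2 it was 0.034 for Eif1a, -0.025 for Eif4e3, 0.12 for Eif5b and 0.020 for Eef1a2, and within station 1 -0.0073 for Eef2kmt. With gene means it was -0.061 for Eif4e3 and -0.088 for Eef1akmt1. With lot as a block, and within the lot of the Sod2+/+ arrays, it was -0.075 for Eif5a2, 0.076 for Eef1a2, 0.10 for Eefsec and -0.016 for Eef1aknmt. Over the omissions of 1 array, Eif5b ranged from -0.32 to 0.089, Eif5a2 from -0.026 to 0.21, Eef1d from -0.18 to 0.043, Eefsec from -0.18 to 0.063 and Eef2kmt from -0.032 to 0.11. For the 12 factors that fell, 151 of 252 values under the alternatives were not past the threshold and 101 were. No paired analysis was possible because the genotypes share no replicate number in the labels. Pairs of samples were sorted in parallel, but which samples made up a pair is not stated. The number of arrays, and for dim factors the array background, limits these results: within a station or that lot a group can hold a single array, which is then assumed to vary like the other group.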

Other observations

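After quantile normalization the median difference was -0.29 over the 4 eIF1 and eIF1A genes and -0.32 over the 5 eIF2B subunits. It was -0.28 over the 11 eIF3 subunits, 0.01 over the 4 cap-binding and eIF4E transporter genes, and -0.08 over the 12 elongation genes. The median deviation of the eIF3 subunits from their Sod2+/+ means in the deposited values was -0.47, -0.59 and -0.38 in Sod2-/- replicates 31, 35 and 39, against 0.02, 0.20, -0.17 and -0.07 in Sod2+/+ replicates 17, 29, 33 and 37. The genotypes did not overlap.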
